A study of Chlorocebus sabaeus with 12 samples.

Results

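The heat shock chaperones of the cytosol, nucleus and mitochondria were examined in COS-1 cells carrying either of 2 mutants of the bile acid receptor FXR. The members are the array's non-control probes whose gene name begins as an HSP family, DNAJA, DNAJB, DNAJC, BAG or CCT name, without 6 chaperones of the endoplasmic reticulum, and each gene is represented by its brightest probe. This gave 84 of the 30982 gene names on the array, with 131 probes. Of these, 14 are HSPC clone names (HSPC157 and the like), given to cDNA clones from haematopoietic stem and progenitor cells, so 70 carry chaperone or cochaperone names, including that of the pseudogene HSP90AB3P. A member was tested where at least 1 of the 4 groups had a probe well above background on its 3 arrays. That left 77 members, 64 of them without the clone names, and 113 probes. The 7 that were not tested were HSPA4L, HSPA12B, HSPB3, DNAJB7, DNAJB8, DNAJC5B and HSPC072. HSPA9B and DNAJA5 are older names of HSPA9 and DNAJC21, and 65 of the member names are also symbols of the green monkey's RefSeq annotation.

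COS-1 is a fibroblast-like kidney line of the African green monkey, and all RNA was hybridised to an array of 60-base human probes. Cells expressed human FXR for 24 h, either S154A, in which a serine is replaced by alanine, or S154D, in which the same serine is replaced by aspartate. They then received 0.1% DMSO or chenodeoxycholic acid (CDCA, a bile acid and FXR ligand, which the labels give as 50 mM, a unit that was not verified here) for another 24 h. The labels name 3 replicates in each of the 4 groups S154A_DMSO, S154A_CDCA, S154D_DMSO and S154D_CDCA. No untransfected cells and no cells with unmutated FXR were among the samples used here, and nothing says whether replicates came from separate cultures, so p-values measure the spread between these arrays.

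Chaperones bind unfolded proteins and keep them from aggregating. HSP70 proteins do so in cycles of ATP hydrolysis that J-domain proteins (DNAJA, DNAJB, DNAJC) start and that BAG and HSP110 proteins end by exchanging the nucleotide, while HSP90 acts later on kinases and receptors, including the steroid receptors. HSP60 with HSP10 folds proteins in the mitochondrial matrix, and the CCT ring folds actin and tubulin in the cytosol. When unfolded proteins accumulate, the transcription factor HSF1 raises HSPA1A, HSPH1, DNAJB1, HSPB1 and BAG3, whereas HSPA8, HSP90AB1 and the CCT subunits are made constitutively.

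All values below are log2 of the processed signal minus the array's own 75th percentile, so 0 is the level of that percentile, and a change is a difference of such values with its standard error. A call needs an adjusted p under 0.05 (limma over all 12 arrays, Benjamini-Hochberg over 20355 genes). The NR1H4 probe, which reads FXR itself, lay between 7.46 and 7.94 on the 12 arrays. The fibroblast-like markers VIM, S100A6, LGALS1 and ANXA2 were well above background on 12 of 12 arrays, whereas PTPRC, the defining marker of leukocytes, was so on 0. All 6 fibroblast-like and all 5 epithelial markers, 3 of 5 leukocyte, 3 of 6 hepatocyte and 2 of 4 kidney tubule markers passed on all arrays. Between 61.6% and 79.8% of the spots of an array were well above background, and 0 to 3 spots were saturated. The log2 of the summed epithelial markers was 6.60 to 6.81 on the S154D_CDCA arrays and 6.92 to 6.99 on the S154D_DMSO arrays, without overlap. It was 6.72 to 7.02 on the S154A arrays. The fibroblast-like sum was also lower with CDCA without overlap, at 9.25 to 9.37 on S154D_CDCA and 9.38 to 9.61 on S154D_DMSO arrays. It was 9.18 to 9.49 on the S154A arrays. The hepatocyte, leukocyte and kidney tubule sums overlapped between the S154D groups. The part of these differences in the results was not tested. In bulk RNA, fewer expressing cells and less RNA per cell cannot be told apart. In each group 1 array stood apart from its replicates: S154A_DMSO 2, S154A_CDCA 2, S154D_DMSO 2 and S154D_CDCA 1. Over all genes the 2 other arrays of a group differed by a median of 0.15 to 0.17, and pairs with the array that stood apart by 0.20 to 0.27. Several results, but not all, are given with and without these arrays, an alternative chosen after seeing the data.

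Several results below turn on which probe of a gene is read, so the probes concerned are shown first, 5′ to 3′, with G and C in capitals and A and T in lower case. Coordinates are those of the files (human build hg17). Of the 3 HSPA1A probes, both at 60% and 58.3% G and C lie in the reading frame of this single-exon gene, at chr6:31892924-31892983 and chr6:31892373-31892432. The third, at 36.7%, lies downstream of them at chr6:31893470-31893529, and only its first 30 bases are shown. The HSPA4 probes, at 45% and 35.0%, lie at chr5:132467966-132468025 and, across a splice junction, chr5:132463227-132465392, and the HSPB1 probe, at 65.0%, lies at chr7:75578047-75578106.
HSPA1A A_24_P123616: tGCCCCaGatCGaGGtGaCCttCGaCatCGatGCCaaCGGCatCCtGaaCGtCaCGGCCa
HSPA1A A_24_P682285: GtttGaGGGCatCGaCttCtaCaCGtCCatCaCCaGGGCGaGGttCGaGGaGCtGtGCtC
HSPA1A A_23_P111132: GaGCttCaaGaCtttGCatttCCtaGtatt
HSPA4 A_24_P377269: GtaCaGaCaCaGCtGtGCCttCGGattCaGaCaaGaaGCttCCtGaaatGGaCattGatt
HSPA4 A_24_P377277: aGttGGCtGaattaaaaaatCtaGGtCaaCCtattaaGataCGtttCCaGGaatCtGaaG
HSPB1 A_23_P257704: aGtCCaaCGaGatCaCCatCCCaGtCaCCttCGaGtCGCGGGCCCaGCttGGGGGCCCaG

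The first comparison asked whether CDCA changed chaperone transcripts in cells with FXR S154A. None of the 77 members was called, beside 0.133% of all genes, and the smallest adjusted p of a member was 0.799 by limma. At an unadjusted p under 0.05 there were 3 members, all with negative changes, beside 5.93% of all genes. The median change was -0.02 over the members and -0.04 over all genes tested. The arrays of the 2 groups did not overlap for 6 members, beside 11.8% of all genes.

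The inducible genes gave no common pattern in these cells. HSPA1A, the inducible cytosolic HSP70, measured 2.21, 2.89 and 2.40 with DMSO and 2.38, 1.90 and 2.56 with CDCA, so the groups overlapped (change -0.22 ± 0.27, 95% interval -0.81 to 0.37). Without the 4 arrays that stood apart the value was 0.17, also not called. DNAJB1, the J-domain partner of HSPA1A in disaggregation, had -0.08 ± 0.15, and HSPH1, the main HSP110 protein of the cytosol, had 0.01 ± 0.15. BAG3, a nucleotide exchange factor that leads clients to autophagy, had 0.12 ± 0.13, and HSPB1, the small heat shock protein HSP27, had -0.03 ± 0.19. HSPA6, a strictly inducible HSP70, had 0.01 ± 0.15.

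The constitutive and mitochondrial chaperones also lay close to 0 with FXR S154A. HSPA8, the constitutive cytosolic HSP70, had -0.16 ± 0.15, HSP90AA1 -0.02 ± 0.11 and HSP90AB1 0.04 ± 0.12. In mitochondria, HSPD1 (HSP60) had 0.03 ± 0.12, HSPE1 (HSP10) -0.00 ± 0.11 and HSPA9B (mortalin, the matrix HSP70) 0.13 ± 0.11. DNAJA1 had -0.13 ± 0.12, BAG1 -0.22 ± 0.15, and the CCT subunits CCT2 and CCT8 had -0.15 ± 0.14 and -0.02 ± 0.09. The 3 largest negative changes were those of DNAJC5G (-0.63 ± 0.27), HSPB6 (-0.48 ± 0.18) and HSPC105 (-0.48 ± 0.17). The 3 largest positive ones were DNAJB14 (0.51 ± 0.64), HSPC048 (0.31 ± 0.15) and HSPB7 (0.20 ± 0.41). For DNAJB14, S154A_DMSO 2 measured -1.50, against -0.01 and -0.07 on the other S154A_DMSO arrays. With 1 array left out at a time its change ranged from 0.02 to 0.77. DNAJC5G, HSPB6 and HSPB7 are dim, with levels below -4 on all 12 arrays.

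**Figure D1:**
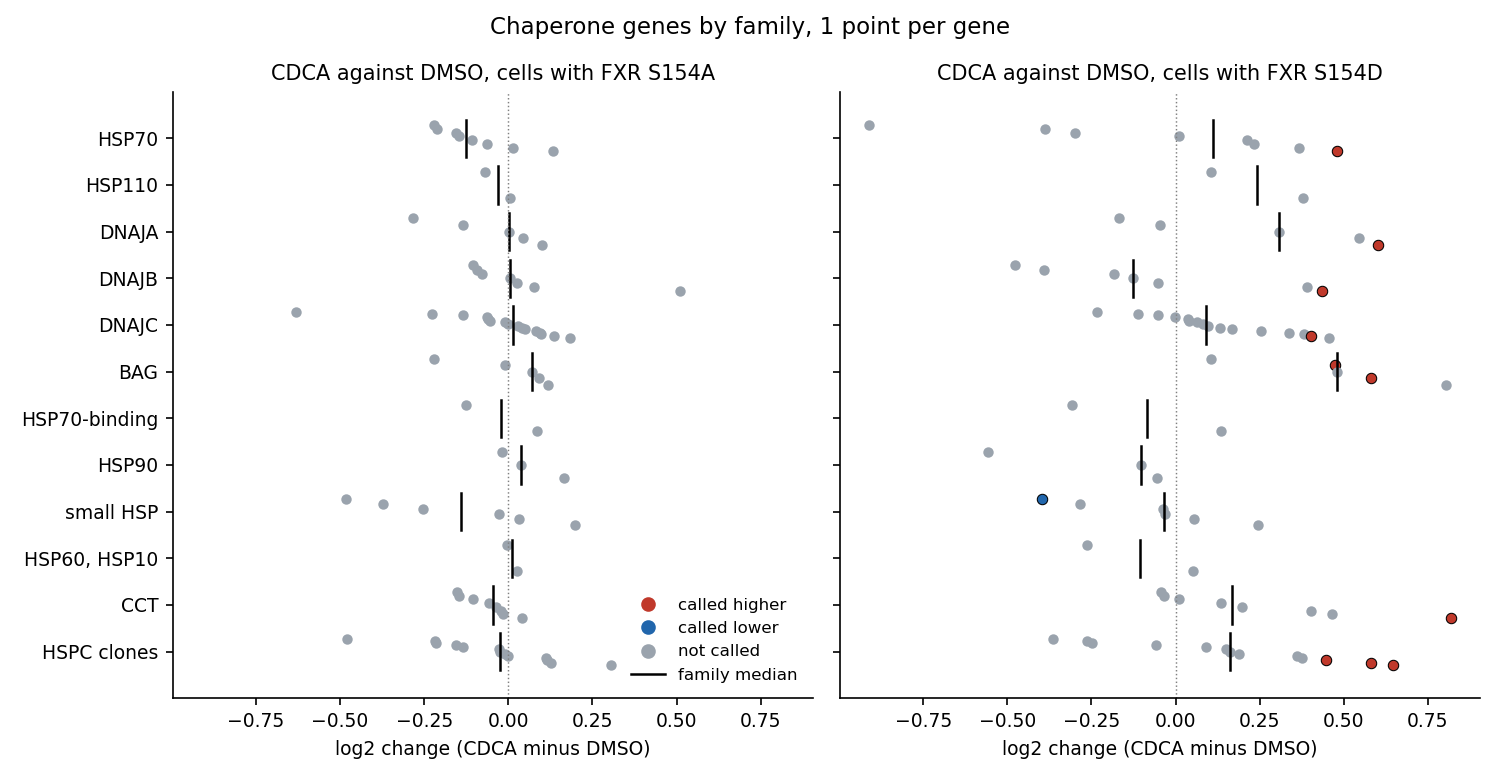
Log2 change with CDCA (horizontal axis) of the 77 members by family (vertical axis), with FXR S154A on the left and FXR S154D on the right. Each point is a gene, red where called higher, blue where called lower and grey otherwise, and the short vertical lines are family medians. No gene was called on the left, whereas 10 were called higher and 1 lower on the right.

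The second comparison asked the same in cells with FXR S154D. Here 11 members were called, 14.3% of the 77, beside 10.2% of all genes. Called higher were 10, beside 6.55% of all genes called higher, and called lower was 1, beside 3.65%. The 10 were BAG2, BAG3, HSPA9B, CCT5, the J-domain genes DNAJA5, DNAJB4 and DNAJC9, and the clone names HSPC157, HSPC171 and HSPC268, and the 1 was HSPB8. The median change was 0.10 over the members and -0.01 over all genes. Without the clone names, 7 of 64 members were called higher and 1 lower, 12.5% of that list, with a median change of 0.07. At an unadjusted p under 0.05 there were 28 members (36.4%), beside 30.0% of all genes, and the groups did not overlap for 27 members, beside 33.7% of all genes. The shares of members thus lay close to those of all genes on both of the last counts. Without the 4 arrays that stood apart 11 members were called, 8 higher and 3 lower, of which 7 were also called with all arrays, beside 12% of all genes (2534 of 21130) in the same setting. Within slide 3, the only slide with arrays of both groups, the median of the members was 0.15. S154D_CDCA 1 and 3 lay on slide 2, and the S154D_DMSO arrays on slides 1, 4 and 3. Slide and CDCA can thus not be fully told apart in S154D cells.

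Among the BAG proteins, which release client proteins from HSP70, 2 of 5 were called, beside 10.2% of all genes. On the brightest probes all 5 values were positive under each of the 5 scalings tried. The probes of BAG2, BAG3 and BAG4 hold 35.0% and that of BAG5 36.7% G and C, where the median changes of all genes were 0.36 and 0.24, and 4375 of the 5553 genes with probes under 40% had positive values. BAG3 measured 1.73, 1.74 and 1.68 with DMSO and 2.56, 2.06 and 2.27 with CDCA, a rise of 0.58 ± 0.13 (limma adjusted p = 0.0303). All CDCA arrays lay above all DMSO arrays on this probe, and the S154D_DMSO arrays of BAG3 also lay below all S154A arrays. Its other probe, A_23_P47077, measured 1.39, 1.30 and 1.43 with DMSO and 1.52, 0.96 and 0.90 with CDCA, with a change of -0.24 ± 0.16, so the 2 probes of this gene disagreed in sign, as they did in the test of the difference between the mutants' responses (0.46 ± 0.18 and -0.57 ± 0.23). The call on the first probe was lost without the 4 arrays that stood apart (0.46, adjusted p = 0.0617). BAG2, an inhibitor of the ubiquitin ligase CHIP, measured 0.15, 0.28 and 0.09 with DMSO and 0.76, 0.55 and 0.64 with CDCA, and rose by 0.47 ± 0.11 or 1.39-fold (adjusted p = 0.0317). In S154A cells BAG2 lay between 0.39 and 0.73 on all 6 arrays, at the level of the S154D_CDCA arrays, so the 3 S154D_DMSO arrays were the low ones. BAG4 (0.81 ± 0.24) and BAG5 (0.48 ± 0.18) were not called, and BAG1 had 0.11 ± 0.15. The BAG5 probe A_23_P37076, at 45% G and C, had -0.43 ± 0.26, opposite in sign to the brightest one.

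Of the 8 HSP70 proteins tested, 1 was called (12.5%, beside 10.2% of all genes), and 5 of the 8 changes were positive. HSPA9B, which also pulls proteins through the inner mitochondrial membrane, measured 1.87, 1.92 and 1.91 with DMSO and 2.24, 2.36 and 2.55 with CDCA. This was a rise of 0.48 ± 0.11 or 1.40-fold (limma adjusted p = 0.0335). The S154D_DMSO arrays of HSPA9B also lay below all S154A arrays. HSPA1A measured 2.66, 2.55 and 2.72 with DMSO and 2.17, 1.84 and 1.18 with CDCA. All CDCA arrays lay below all DMSO arrays, with a change of -0.91 ± 0.27 (95% interval -1.50 to -0.32) that was not called (adjusted p = 0.0539). It was called without the 4 arrays that stood apart (-1.17, adjusted p = 0.0364) and with quantile normalisation (-0.97, adjusted p = 0.0409). HSPA1A has the near-identical copy HSPA1B, which no probe name carries, so its value may hold both. HSPA8 (0.01 ± 0.15) and HSPA6 (-0.30 ± 0.15) were not called. HSPA14 measured 3.04, 3.18 and 2.88 with DMSO and 3.48, 3.27 and 3.46 with CDCA, without overlap. Its change of 0.37 ± 0.12 was not called (limma adjusted p = 0.0771), except with quantile normalisation (limma adjusted p = 0.0414). Of the HSP110 proteins, HSPH1 had 0.38 ± 0.15 and HSPA4 0.11 ± 0.12, neither called.

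The 3 probes of HSPA1A did not move alike in S154D cells. The second probe in the reading frame measured 2.24, 2.08 and 2.31 with DMSO and 1.71, 1.01 and 0.38 with CDCA, a difference of -1.18 ± 0.35, in the direction of the first. The downstream probe with fewer G and C bases measured -1.82, -1.98 and -1.38 with DMSO and -0.83, -1.41 and -1.46 with CDCA, a difference of 0.49 ± 0.28 of the opposite sign. The 2 HSPA4 probes differed in size: at 45% G and C the change was 0.11 ± 0.12, and at 35.0% it was 0.72 ± 0.19, from 1.62, 1.97 and 1.52 with DMSO to 2.60, 2.17 and 2.49 with CDCA. The 3 probes of HSPB1, at 60% to 65.0%, had changes of -0.01 ± 0.20, 0.01 ± 0.19 and -0.03 ± 0.19.

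**Figure D2:**
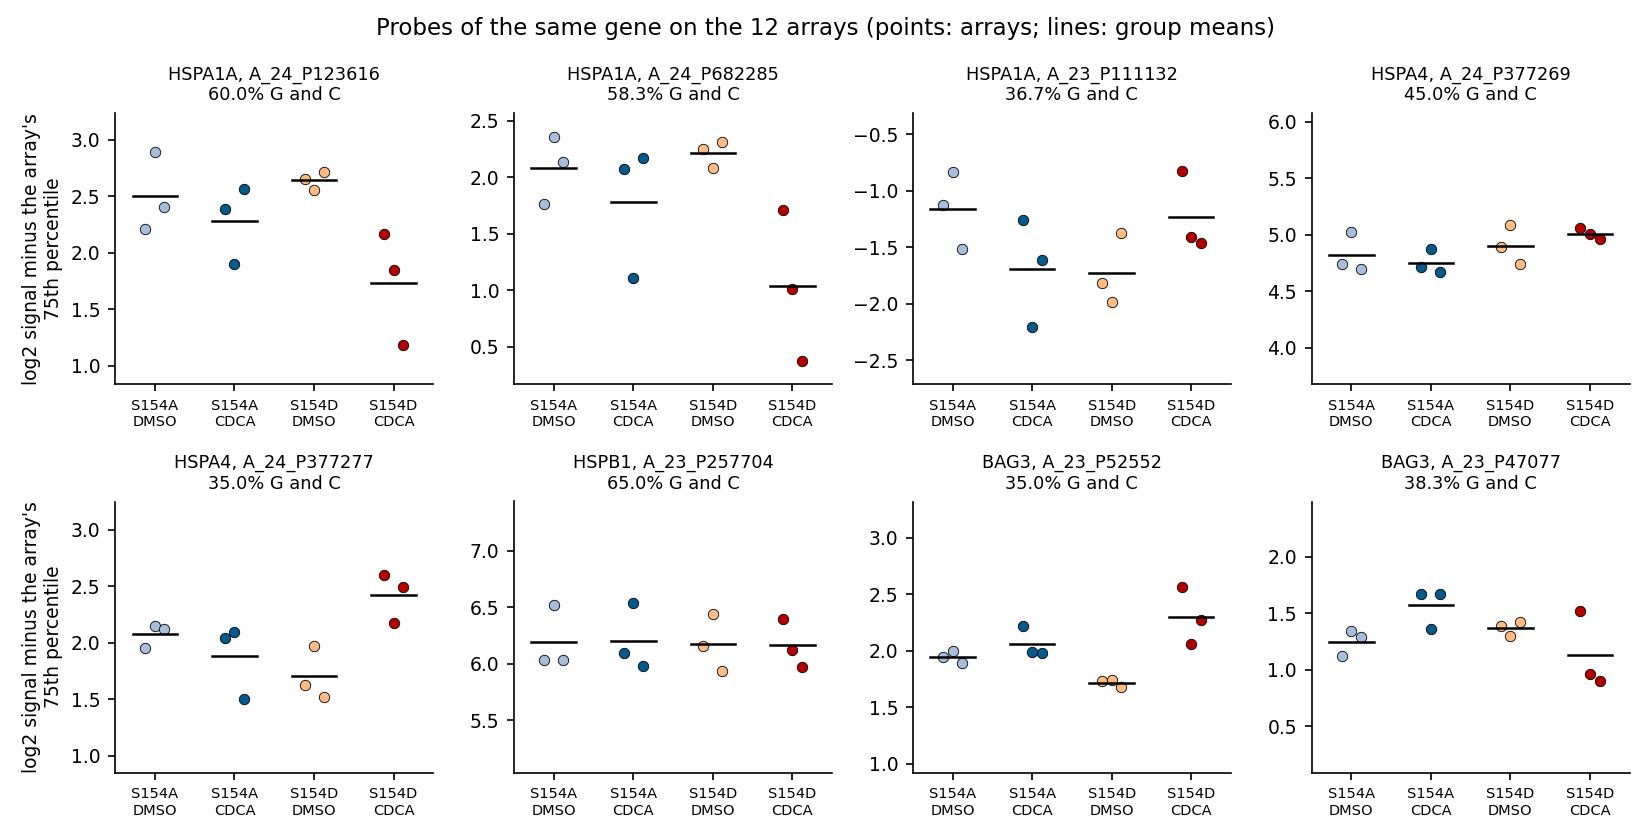
Levels on the 12 arrays (log2 signal minus the array's 75th percentile, vertical axis) of 8 probes of HSPA1A, HSPA4, HSPB1 and BAG3 in the 4 groups (horizontal axis), with points for arrays and lines for group means. With S154D and CDCA the HSPA1A probes at 60% and 58.3% G and C lie low and the one at 36.7% does not, and the 2 BAG3 probes differ in direction.

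Of the J-domain proteins, 3 of 28 were called, each higher, a share close to the 10.2% of all genes called. DNAJA5, a factor of ribosome assembly, measured 0.01, 0.10 and -0.04 with DMSO and 0.41, 0.72 and 0.75 with CDCA, a rise of 0.60 ± 0.12 (adjusted p = 0.0291). DNAJC9, which brings HSP70 to histones, measured 3.35, 3.18 and 3.06 with DMSO and 3.61, 3.58 and 3.62 with CDCA, a rise of 0.40 ± 0.11 (adjusted p = 0.0494). DNAJB4, a cytosolic relative of DNAJB1, rose by 0.43 ± 0.12 (adjusted p = 0.0486). These 3 genes did not overlap between the groups, although the calls of DNAJC9 and DNAJB4 were lost without the 4 arrays that stood apart (adjusted p = 0.0953 and 0.0547). The inducible DNAJB1 had 0.39 ± 0.15 (adjusted p = 0.109) and DNAJA1, the main J-domain partner of HSPA8, had 0.31 ± 0.12 (adjusted p = 0.124). DNAJB5 (-0.48 ± 0.16) and DNAJB12 (-0.39 ± 0.12), the latter a membrane protein of the endoplasmic reticulum that the name rule keeps, lay lower on all CDCA arrays and were not called.

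Of the 8 genes with CCT names, which encode subunits of the CCT ring, 1 was called (12.5%, beside 10.2% of all genes). The 8 are not the complete ring, since the name rule does not match TCP1, counted among the other genes of the pathway. CCT5 measured 3.46, 3.86 and 3.31 with DMSO and 4.49, 4.09 and 4.5 with CDCA, a rise of 0.82 ± 0.22 or 1.76-fold (adjusted p = 0.0463), which was not called without the 4 arrays that stood apart (0.91, adjusted p = 0.0592). CCT2 had 0.47 ± 0.14 (adjusted p = 0.0621) and CCT8 0.14 ± 0.09. CCT3, CCT4 and CCT7 lay between -0.04 and 0.01. On the brightest probes the changes of the 8 genes ranged from -0.04 to 0.82, and differences between subunits were not tested.

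HSPB8, a small heat shock protein that forms a complex with BAG3, was the only called member that fell. It measured -0.37, -0.57 and -0.46 with DMSO and -0.71, -0.90 and -0.98 with CDCA, a change of -0.40 ± 0.10 (adjusted p = 0.0414), and it lay between -0.58 and -0.41 on the 6 S154A arrays. The S154D_CDCA arrays were thus below the 9 others. HSP90AA1 had -0.10 ± 0.11, HSP90AB1 -0.05 ± 0.12, HSPD1 -0.26 ± 0.12 (limma adjusted p = 0.17) and HSPE1 0.05 ± 0.11, none of them called. These values are those of the brightest probes. Of the 3 kept HSP90AB1 probes, A_24_P823684 had -0.28 and A_24_P170295 -0.77. The latter measured 0.79, 0.38 and 1.36 with DMSO and -0.42, 0.35 and 0.29 with CDCA, without overlap. HSPD1 and HSPE1, which work together and share a promoter region, thus had no called change.

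**Figure D3:**
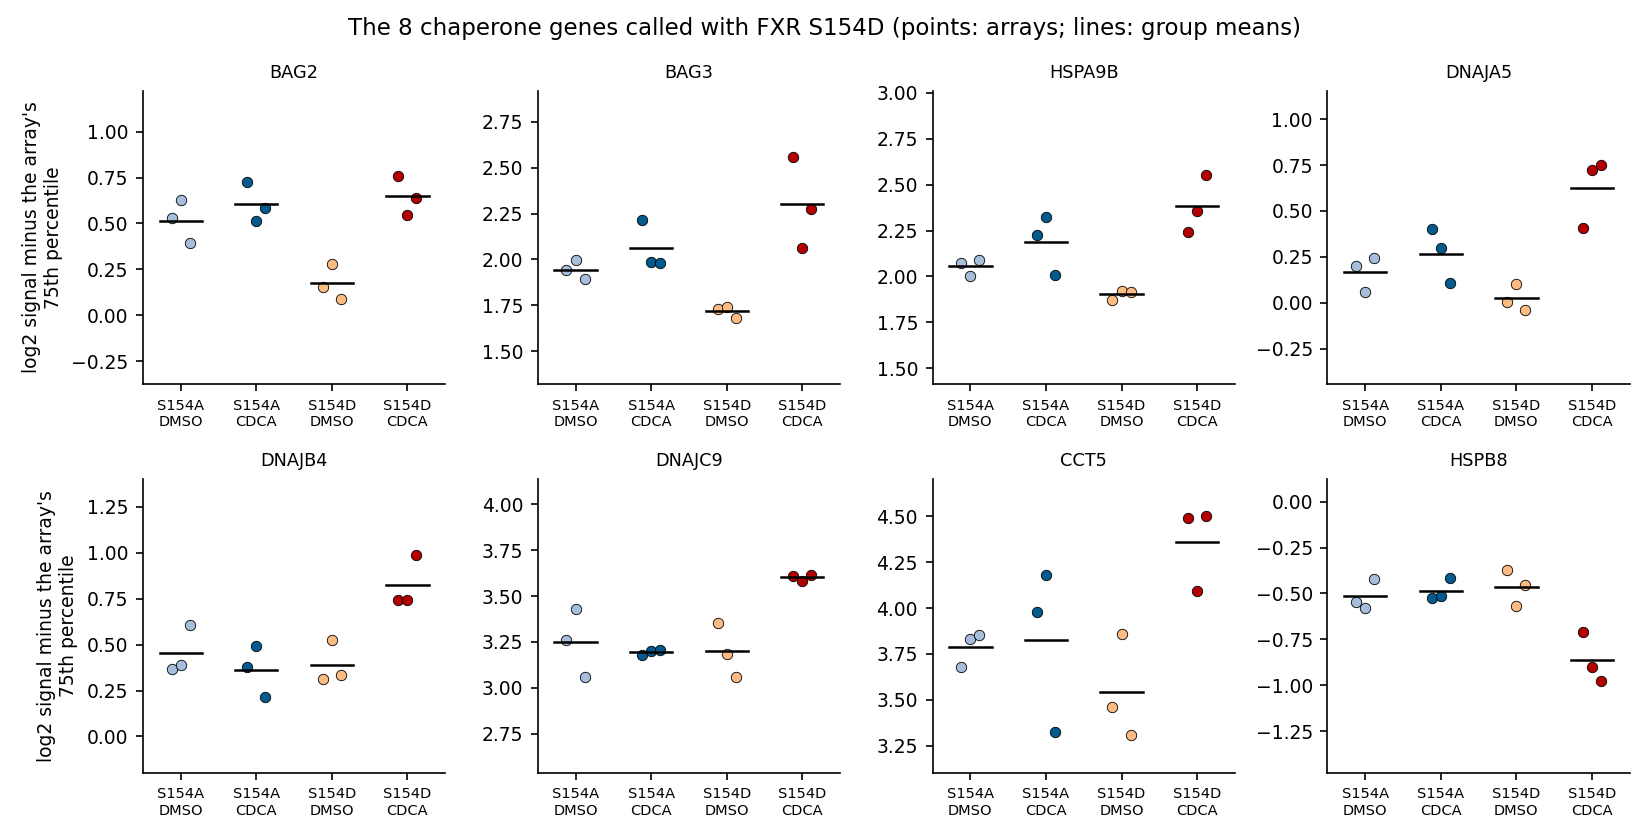
Levels on the 12 arrays (log2 signal minus the array's 75th percentile, vertical axis) of the 8 called genes that are not clone names, in the 4 groups (horizontal axis), with points for arrays and lines for group means. In each panel the S154D_CDCA arrays lie above, or for HSPB8 below, the S154D_DMSO arrays, and for BAG2 they lie at the S154A level. For BAG2, BAG3 and HSPA9B the S154D_DMSO arrays lie below all S154A arrays.

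The change with CDCA in S154D cells ran with the base composition of the probe. Over all genes its median was 0.31 where under 40% of the probe's bases were G or C, 0.02 from 40 to under 50% and -0.29 from 50%. Over the members the same medians were 0.39 (23 genes), 0.06 (39 genes) and -0.11 (15 genes). The Spearman correlation of change and composition was -0.55 across the 77 members and -0.56 across all genes, which share their arrays and are not independent. It was -0.30 and -0.11 in S154A cells. The probes of the 10 members called higher held 25.0% to 41.7% G and C with a median of 36.7%, against a median of 43.3% over the members tested. Of 9 genes with kept probes at least 10 points apart, 7 had the higher change on the probe with fewer G and C bases, the exceptions being HSP90AA1 (-0.36 at 35.0%, -0.10 at 45%) and DNAJC4 (-0.20 at 43.3%, -0.11 at 55.0%), each by its brightest probe. Both hold for that probe alone, since the other HSP90AA1 probe at 45% had -0.76 ± 0.47 and the other DNAJC4 probe at 55.0% had -0.56 ± 0.30. Of all 24 members with more than 1 kept probe, 12 had probes that agreed in sign of the S154D change and the others did not, so the value of a single probe need not hold for its gene. DNAJB12 spanned 0.77 at 35.0%, 0.25 at 40% and -0.39 at 55.0%, and HSPD1 0.38 at 35.0% and -0.26 at 45%. The part of probe composition in the calls was not tested beyond the correction that follows.

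**Figure D4:**
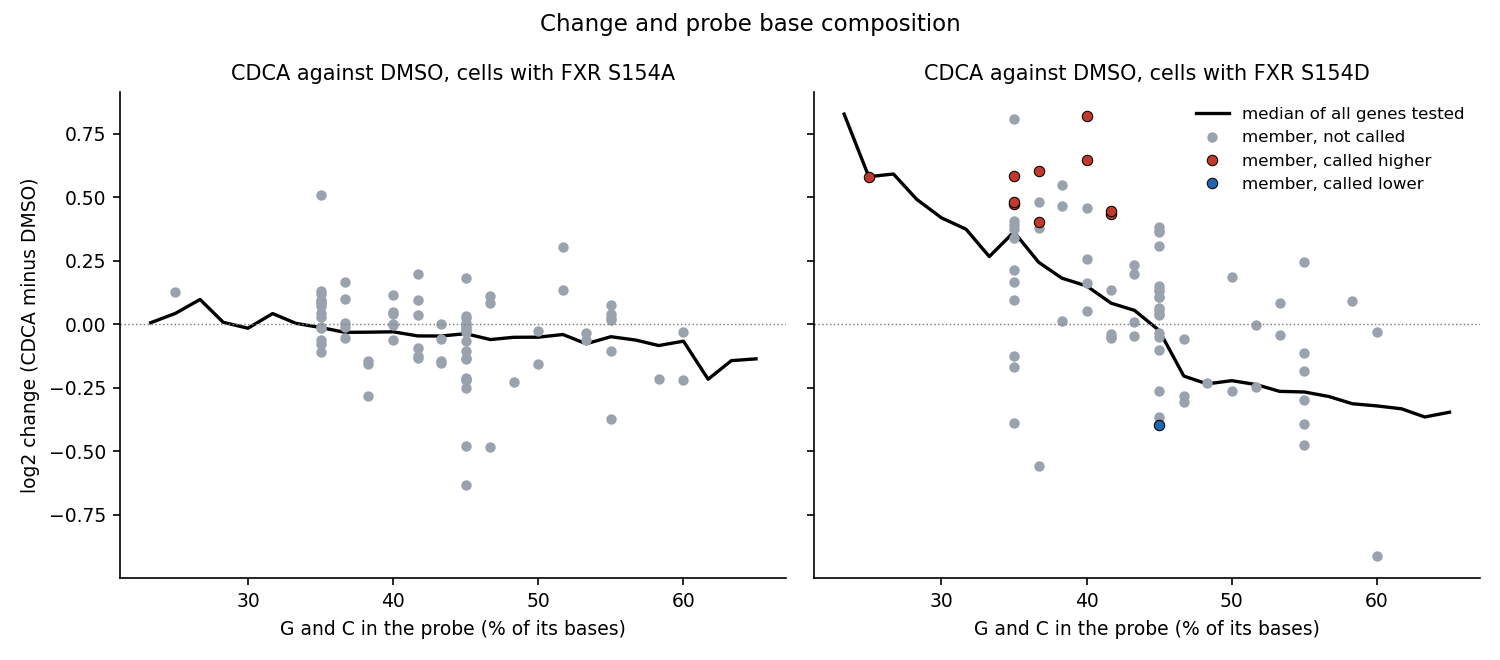
Log2 change with CDCA (vertical axis) against the share of G and C in the probe (horizontal axis), for the members (points) and the median of all genes at each share (line), with FXR S154A on the left and FXR S154D on the right. The line falls from left to right with S154D, and called members lie at 25.0% to 45%.

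After each array was corrected for the trend of signal on probe composition, no member was called in S154D cells, beside 0% of all genes (limma), and 17 members had an unadjusted p under 0.05, beside 18.4% of all genes. The median of the members was then 0.10 and that of all genes 0.02. CCT5 then had 0.70 ± 0.24, HSPC171 0.53 ± 0.11, HSPC157 0.38 ± 0.09, DNAJB4 0.37 ± 0.12 and HSPB8 -0.33 ± 0.10, whereas DNAJA5 moved from 0.60 to 0.35 ± 0.11. BAG2 moved to 0.13 ± 0.14, HSPA9B to 0.13 ± 0.10, DNAJC9 to 0.15 ± 0.14 and BAG3 to 0.24 ± 0.15, and HSPC268, at 25.0% G and C, turned to -0.13 ± 0.11. HSPA1A moved to -0.57 ± 0.25. With slide as a fixed block no member was called either, beside 0% of all genes.

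**Figure D5:**
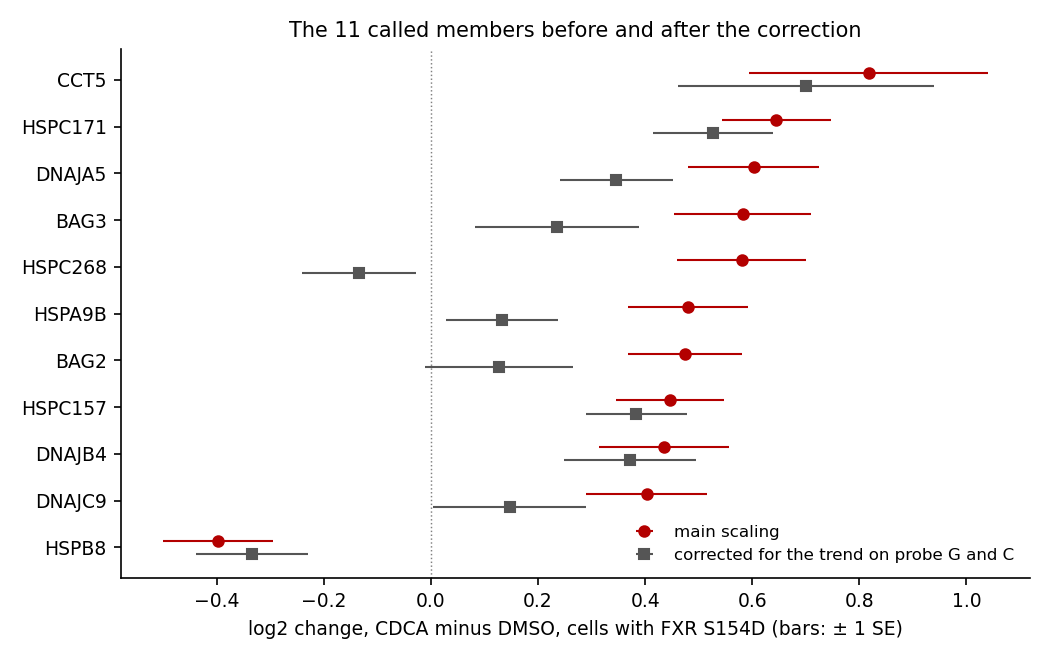
Log2 change with CDCA in S154D cells (horizontal axis, bars ± 1 SE) of the 11 called members (vertical axis) with the main scaling (circles) and after the correction for probe composition (squares). CCT5, HSPC171, HSPC157, DNAJB4 and HSPB8 move little, whereas HSPC268 changes sign.

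Some probes followed the arrays that stood apart more than the groups, a pattern picked out after the values were seen. HSP90AA1 on its brightest probe lay between 5.06 and 5.37 on the 12 arrays. On A_32_P199252, another of its 4 probes, it measured 2.94, 3.27, 3.35 and 2.40 on the 4 arrays that stood apart, and 3.55 to 4.85 on the 8 others. HSP90AB3P, a processed pseudogene of HSP90AB1, measured 0.31, 0.55, 0.52 and 0.08 on these 4 arrays and 0.85 to 1.84 on the others. HSPB1 did the reverse, with 6.88, 6.89, 6.80 and 6.79 against 6.32 to 6.57. Each group held 1 such array, so this enters the spread within groups, and the standard errors of the S154D change, 0.19 for HSPB1 and 0.45 for HSP90AB3P, were larger than the members' median of 0.13. HSPA8, whose 2 probe names A_23_P24594 and A_24_P287129 hold the same sequence, gave 0.01 ± 0.15 and 0.01 ± 0.14 on them, and -0.59 ± 0.24 on A_24_P295745.

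In DMSO alone, none of the 77 members was called between S154D and S154A cells, beside 0% of all genes. BAG2 alone had an unadjusted p under 0.05, beside 4.32% of all genes, with -0.34 ± 0.11 in S154D relative to S154A cells (adjusted p = 0.997 by limma). The groups did not overlap for 8 members, beside 11.1% of all genes, and the median difference was -0.01, beside 0.00. The 3 largest differences each way were, besides BAG2, HSPA1L (-0.43 ± 0.27) and BAG5 (-0.30 ± 0.18) among the negative ones, and HSPC048 (0.30 ± 0.15), DNAJB5 (0.27 ± 0.16) and DNAJC12 (0.23 ± 0.18) among the positive ones. HSPA1A had 0.14 ± 0.27, HSPA8 0.01 ± 0.15 and HSP90AA1 0.00 ± 0.11. DNAJB1 had -0.26 ± 0.15 and HSPD1 0.21 ± 0.12.

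With CDCA present, S154D and S154A cells did not differ in any called member, beside 0.403% of all genes. At an unadjusted p under 0.05 there were 22 members (28.6%), beside 23.6% of all genes, and 23 did not overlap, beside 28.5%. The median difference, S154D minus S154A, was 0.13 over the members and 0.06 over all genes. HSPB8 was -0.38 ± 0.10 (adjusted p = 0.0949), HSPB9 0.80 ± 0.25 (adjusted p = 0.115) and DNAJA4 0.66 ± 0.18 (adjusted p = 0.0986), each without overlap. The other HSPB9 probe, A_23_P49725, did overlap, with -4.46, -4.88 and -4.97 in S154D and -5.19, -4.39 and -4.74 in S154A cells. BAG4 had 0.56 ± 0.24, and the largest negative values were HSP90AB3P (-0.65 ± 0.45), HSPA1A (-0.55 ± 0.27) and DNAJB14 (-0.49 ± 0.64). For DNAJB14, S154D_CDCA 1 measured -2.16, against 0.19 and 0.46 on the other S154D_CDCA arrays. With 1 array left out at a time its difference ranged from -0.97 to 0.34. The downstream HSPA1A probe measured -0.83, -1.41 and -1.46 in S154D and -1.26, -2.20 and -1.61 in S154A cells, a difference of the opposite sign. BAG2 had 0.04 ± 0.11 and BAG3 0.24 ± 0.13. CCT5 had 0.53 ± 0.22, CCT2 0.42 ± 0.14, HSPD1 -0.08 ± 0.12, HSPE1 0.15 ± 0.11 and HSPA8 0.18 ± 0.15.

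The difference between the 2 CDCA responses, tested as an interaction, was called for no member, beside 0.138% of all genes, and 21 members had an unadjusted p under 0.05, beside 22.3% of all genes. So the calls made with S154D and not with S154A were not shown to differ between the mutants. The values, S154D response minus S154A response, were 0.83 ± 0.26 for DNAJA4, 0.78 ± 0.32 for CCT5, 0.73 ± 0.33 for BAG4, 0.46 ± 0.18 for BAG3, 0.38 ± 0.15 for BAG2, 0.35 ± 0.16 for HSPA9B, -0.43 ± 0.15 for HSPB8 and -0.69 ± 0.37 for HSPA1A (adjusted p from 0.119 to 0.304). The downstream HSPA1A probe had a value of the opposite sign. In S154A cells it measured -1.13, -0.84 and -1.51 with DMSO and -1.26, -2.20 and -1.61 with CDCA, and its S154D change was positive. HSP90AB3P (-0.72 ± 0.64) and DNAJB14 (-0.64 ± 0.90) were the other large negative values. With 1 array left out at a time the DNAJB14 value ranged from -1.12 to 0.19. On its other probe the S154D change was 0.75, against -0.13 on the brightest. HSP90AA1 had -0.08 ± 0.15, HSPE1 0.06 ± 0.16 and HSPB1 -0.00 ± 0.27. This comparison and the S154D response share their arrays, so they are not separate evidence.

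Of 48 other genes of the heat shock pathway tested, 0 were called in S154A cells, and in S154D cells 5 were higher and 2 lower, with a median change of 0.06 (14.6% called, beside 10.2% of all genes). The 48 include the 6 chaperones of the endoplasmic reticulum left out of the members, of which 1 was called higher in S154D cells. HSF1, the main heat shock factor, had 0.06 ± 0.12 and was not called. HSF2, a second heat shock factor, measured -1.05, -0.91 and -0.93 with DMSO and -0.14, -0.36 and -0.07 with CDCA, a rise of 0.78 ± 0.13 (adjusted p = 0.0265). CHORDC1, a cochaperone of HSP90, rose by 0.90 ± 0.14, and VBP1, a subunit of prefoldin that hands proteins to CCT, rose by 0.54 ± 0.13. SERPINH1, the collagen chaperone HSP47, measured 2.07, 1.71 and 2.25 with DMSO and 1.04, 1.05 and 0.87 with CDCA, a fall of 1.02 on the log2 scale (adjusted p = 0.0273). TIMM44, which anchors HSPA9 at the mitochondrial import channel, measured 1.21, 0.94 and 1.12 with DMSO and 0.34, 0.18 and 0.16 with CDCA, a change of -0.87 ± 0.11 (adjusted p = 0.0265), opposite in sign to that of HSPA9B. The probes of SERPINH1 and TIMM44 held 53.3% and 50.0% G and C, and those of CHORDC1, HSF2 and VBP1 35.0%, 43.3% and 40%.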

How the data were processed

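RNA of 12 COS-1 samples was hybridised to Agilent arrays of the human genome in 1 colour. The deposited scanner files hold the processed signal intensity of each spot, background-subtracted per the file headers (Feature Extraction 9.5.3.1; version 12 per the submitters' processing notes), with flags for spots well above background and outlier spots. The deposited series table holds the same intensity for all 45015 features of every array and was used as an alternative. Outlier and control spots were left out, intensities were taken to log2 and lowered by each array's 75th percentile over non-control spots, and spots of a probe were averaged. A probe entered where the 3 arrays of some group all had it well above background, and each gene was represented by its brightest kept probe. limma 3.58.1 in R 4.3.3 (lmFit, eBayes) fitted 1 mean per group to all 12 arrays, two-sided, with Benjamini-Hochberg adjustment over 20355 genes, and was tested on simulated data. The text names every called member, or the 3 largest changes each way where none was called, and a set of standard chaperones with any value. Members, gene lists and alternatives were chosen with earlier results of these data known, and HSPB1, HSP90AA1 and other probes described by array were picked after their values were seen. Same-numbered samples paired only in part: of 18 same-number pairs, 9 had a correlation of deviations over 0.1, and the values ranged from -0.35 to 0.51. The human probes can bind monkey transcripts with mismatches, which was not measured. The number of arrays limits the precision.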

Additional observations from a re-analysis of the deposited data

How the results depend on the processing

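Over 27 alternatives (1 of them, without the 4 arrays that stood apart, chosen after seeing the data), no member was called in S154A cells or between the mutants in DMSO, nor for the difference of the responses in the 26 that could be fitted. Between the mutants in CDCA 1 member, HSPC157, was called with quantile normalisation. In S154D cells, where 11 members were called, the count was 0 with the unscaled series table, no filter on dim probes, only the arrays compared or the probe GC correction. It was also 0 with slide as a fixed block and with the replicate block, whose numbers paired the samples only in part. In these settings 12 to 27 members had an unadjusted p under 0.05 (limma). Leaving out slide 2 kept S154D_CDCA 2 as the only array of its group, so no count is given for it. Leaving out 1 array at a time gave 0 to 11 calls, with 0 without S154D_DMSO 1, S154D_DMSO 3 or S154D_CDCA 3 and 3 without S154D_CDCA 2. In these fits 0% to 10.3% of all genes were called, with 3.60% without S154D_CDCA 2, 0.00490% without S154D_DMSO 1, 0.00481% without S154D_CDCA 3 and 0% without S154D_DMSO 3. In all of the settings given here with no member called, at most 0.00491% of all genes were called. Of the called members, HSPC268 alone turned sign, to -0.13 with the probe GC correction. The cause was not tested. The member medians in S154D cells ranged from 0.05 to 0.28. The 3 arrays per group limit what can be called, and dim members have only imprecise values.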
